A study of Homo sapiens with 7 samples.

Results

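The RUNX transcription factors, their common partner CBFB and the ETO family of corepressors were described in MEG-01 cells with and without knockdown of RBM15. The 7 genes RUNX1, RUNX2, RUNX3, CBFB, CBFA2T2, CBFA2T3 and RUNX1T1 were taken by symbol from the 62238 genes with deposited counts. MEG-01 is an established human megakaryoblastic leukemia cell line, and all 7 libraries of the study came from cells at passage number 5, grown in RPMI-1640 with 10% FBS (fetal bovine serum) and harvested in exponential phase. RBM15 is a nuclear RNA-binding protein that is fused to MKL1 in an infant form of acute megakaryoblastic leukemia, and the study asked which RNAs it binds and how their splicing and levels depend on it. RNA-seq was done on 3 libraries, 1 from control MEG-01 cells and 2 from cells with RBM15 knockdown, the first by shRBM15#1 and the second by shRBM15#2. RNA immunoprecipitation with sequencing (RIP-seq) was done on 4 libraries, 2 labelled with a normal immunoglobulin antibody (IgG) and 2 with an RBM15 antibody. The labels give lentiviral transgenes for all libraries but name no construct for the control cells, and by the methods of the study the knockdown cells were selected for stable expression with puromycin. Each shRNA line is 1 library, and the control is 1 library.

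The 3 RUNX proteins bind DNA through the Runt domain and bind more tightly as heterodimers with CBFB, which itself does not contact DNA. RUNX1 is required for the emergence of blood stem cells and for megakaryocyte maturation, RUNX2 is the regulator of bone formation, and RUNX3 acts in lymphocytes and nerve cells. RUNX1 is transcribed from a distal and a proximal promoter, which give the RUNX1c and RUNX1b proteins, and an early last exon gives RUNX1a, which lacks the transactivation domain. The ETO proteins CBFA2T2 (MTGR1), CBFA2T3 (ETO2 or MTG16) and RUNX1T1 (ETO or MTG8) do not recognise DNA motifs themselves and bring corepressor complexes with histone deacetylases to transcription factors such as TAL1 and the E proteins. Several of these genes are broken in leukemia: RUNX1T1 is joined to RUNX1, CBFB to MYH11, and CBFA2T3 to GLIS2 in acute megakaryoblastic leukemia.

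RBM15 sites were found in 2 of the 7 genes, where all sites of the study named 1014 gene symbols among 62238 genes with counts. A stretch of each site is shown because the sites of RUNX1 and of CBFA2T3 differ in their letters. Each line gives 30 bases from the reference genome GRCh37, read 5′ to 3′ on the minus strand, from which both genes are transcribed. Capitals mark matches to TTTTT or CACACA, motifs that were chosen after the letters of the sites had been seen, and the stretch is the one with the most matches within its site.
RUNX1 3′UTR site, chr21:36161613-36161642: ctctcttccccccaatatctcccTTTTTTT
RUNX1 5′UTR site, chr21:36260797-36260826: ttccTTTTTTTgttgTTTTTTTTTgTTTTT
RUNX1 intron site, chr21:36348036-36348065: acaaatgtcactgTTTTTacaaagaTTTTT
CBFA2T3 intron site near bin 015, chr16:88948802-88948831: cataCACACACAgccacaccCACACACACA
CBFA2T3 intron site between bins 028 and 029, chr16:88982839-88982868: cccacatgtgcacgtgagtgCACACACACA

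The study measured RUNX1 isoforms with PCR primers, and these are shown because they lie in the exon bins that separate the isoforms. An exon bin is a piece of an exon over which the annotated transcripts do not differ, and bins are numbered from the lowest coordinate, so that bin 001 of RUNX1 is the 3′ end of the gene. The primers of RUNX1a run from bin 008 into the early last exon in bin 005, and those of RUNX1b and RUNX1c lie together in bin 004, which RUNX1a lacks. All 4 matched GRCh37 and are given 5′ to 3′ in lower case.
RUNX1a forward, chr21:36206715-36206734: aaccctcagcctcagagtca
RUNX1a reverse, chr21:36193831-36193850: ccacattctgccttcctcat
RUNX1b and RUNX1c forward, chr21:36171719-36171737: cccaccgtggtcctacgat
RUNX1b and RUNX1c reverse, chr21:36171642-36171659: ctggcacgtccaggtgaa
The RUNX1a reverse primer also matched the noncoding transcript RUNX1-215, which shares the exon in bin 005.

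The RNA-seq libraries held 53.2 M (control), 41.6 M (shRBM15#1) and 52.5 M (shRBM15#2) counts on exon bins. Of all counts of the shRBM15#1 library, 32% were on lines that name no gene, against 23.2% in the control and 23.5% in the shRBM15#2 library. RBM15 itself had 3970 reads in the control, 1957 in the shRBM15#1 line and 2121 in the shRBM15#2 line, and its log2 fold change was -0.93 ± 0.23 (SE, the standard error of the fit, with an adjusted p = 0.091 in edgeR), so the targeted gene was lower in both lines but did not pass the limit. Of 9 megakaryocyte markers, 7 were tested, with ITGA2B and GATA1 lower after knockdown, 5 higher and a median log2 fold change of 0.66, and none passed. ITGA2B had 919, 476 and 607 CPM (counts scaled to the size of the library) and ITGB3 6.28, 17.9 and 51.8 CPM, while the platelet genes PF4 and GP9 had between 2 and 5 reads in each library. The summed level of the megakaryocyte markers, most of it ITGA2B in the control, was 1428, 1146 and 1418 CPM, and that of 5 erythroid markers was 130, 244 and 234 CPM. T cell and B cell markers summed to between 1.86 and 3.91 CPM, and monocyte markers, mostly LYZ, to 35.8, 27.3 and 55.9 CPM. No marker was at 0 in all 3 libraries. The part of these marker differences in the results below was not tested, and in bulk RNA a lower level per cell and fewer cells of a type cannot be told apart. The p-values rest on the spread between the 2 knockdown lines, which the fit moderates with the spread of all genes. Variation between control cultures was not measured.

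CBFB and RUNX1 were the most abundant of the 7 genes. Levels between genes are given as RPKM, read counts scaled for exon length and library size. CBFB was at 35.4 RPKM in the control, 33.1 in the shRBM15#1 line and 37.6 in the shRBM15#2 line. RUNX1 followed at 8.34, 3.76 and 4.59 RPKM, and CBFA2T3 at 3.07, 2.15 and 1.71 RPKM. The ranges of these 3 genes did not overlap. CBFA2T2 was at 1.19, 0.957 and 0.768 RPKM and RUNX2 at 0.992, 0.597 and 0.459 RPKM, with overlapping ranges. RUNX3 was at 0.553, 0.854 and 0.520 RPKM, which overlapped with RUNX2 and with CBFA2T2. RUNX1T1 was lowest in the control at 0.0911 RPKM and in the shRBM15#2 line at 0.207 RPKM, but in the shRBM15#1 line it reached 1.80 RPKM, above both CBFA2T2 and RUNX3. The order of the remaining genes was the same in the control and the shRBM15#2 line except for RUNX2 and RUNX3, which were in opposite order.

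**Figure D1:**
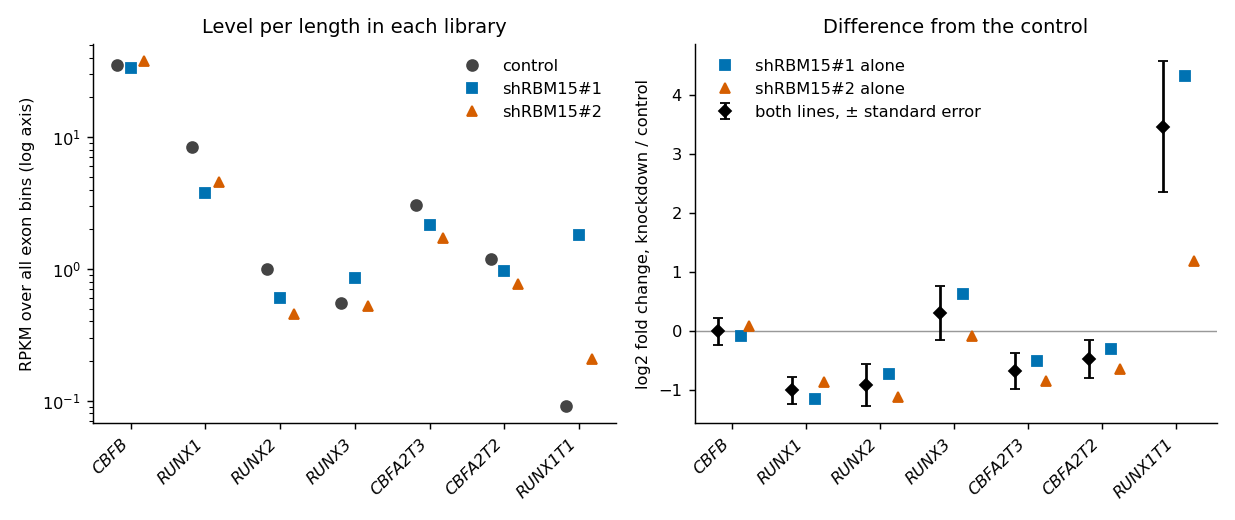
Levels of the 7 genes in RPKM in the 3 RNA-seq libraries on a log axis (left) and log2 fold changes of knockdown over control (right), with diamonds for both lines ± SE and squares and triangles for the single lines. CBFB lies at zero, RUNX1 at about 1 below zero in both lines, and the widest gap between the lines, 3.13, is that of RUNX1T1.

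None of the 7 genes passed an adjusted p under 0.01 in edgeR's quasi-likelihood test, which 0.346% of the 24887 genes tested did, and none passed 0.05, which 1.74% did. At an unadjusted p under 0.05 there were 3 of the 7, RUNX1, RUNX2 and RUNX1T1, compared with 18.8% of all genes. DESeq2 called no member at an adjusted p under 0.01. RUNX1, RUNX2, CBFA2T2 and CBFA2T3 were lower in both lines than in the control, a pattern that 39.4% of all genes had, and RUNX1T1 was higher in both, as were 40.1%. The direction differed between the lines for CBFB and RUNX3. The median log2 fold change over the members was -0.47, and over all genes tested it was 0.017.

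RUNX1 (ENSG00000159216, minus strand of chromosome 21, 36160098 to 37357047 in GRCh37) had 6334 reads in the control, 2580 in the shRBM15#1 line and 3679 in the shRBM15#2 line. After normalization this was 128, 57.6 and 70.5 CPM, so that both lines were well below the control and close to each other. The log2 fold change was -1.0 ± 0.23 (SE, edgeR adjusted p = 0.078), with -1.14 and -0.86 in the single lines. RUNX1 ranked 666 of all genes by p. The adjusted p was 0.061 with size factors, 0.016 without a filter on low counts and 0.046 in DESeq2, and it stayed above 0.01 under all 3. The 3 genes with the most similar levels across the 3 libraries, among 3706 of similar mean level and by Euclidean distance of centred log2 CPM, were ASMTL, MTO1 and JMY, at distances of 0.035, 0.045 and 0.046. With 3 libraries such likeness describes little more than the position of the control and the gap between the lines.

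RUNX2 (ENSG00000124813, plus strand of chromosome 6, 45295894 to 45632086) had 402, 219 and 196 reads in the control and the 2 lines. RUNX2 stood at a log2 fold change of -0.91 ± 0.35 (SE, edgeR adjusted p = 0.22), and both lines lay below the control. The reads were unevenly placed along the gene. The last-exon bin 023, of 3686 bases, held 244, 67 and 95 reads, or 60.7% of all RUNX2 reads for the control, 30.6% in the shRBM15#1 line and 48.5% in the shRBM15#2 line. All other bins together held 158, 152 and 101 reads, or 3.19, 3.40 and 1.94 CPM, so outside the last exon the shRBM15#1 line was not below the control. This division was made after the values had been seen, and in the test of exon usage, with only 4 bins of RUNX2 deep enough, bin 023 had a relative log2 fold change of -0.22 ± 0.31 (SE) and did not pass.

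RUNX3 (ENSG00000020633, minus strand of chromosome 1, 25226002 to 25291612) was a minor transcript, with 126, 176 and 125 reads. The control lay within the range of the lines, and the log2 fold change was 0.31 ± 0.45 (SE, edgeR adjusted p = 0.76). CBFB (ENSG00000067955, plus strand of chromosome 16, 67063019 to 67134961), the partner of all RUNX proteins, had 7233, 6126 and 8098 reads, or 146, 137 and 155 CPM. Here too the control lay between the lines. The log2 fold change of CBFB was -0.0014 ± 0.23 (SE, edgeR adjusted p = 1.0), with -0.08 and 0.09 in the lines.

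Among the corepressors, CBFA2T3 (ENSG00000129993, minus strand of chromosome 16, 88941266 to 89043612) was the most abundant. It had 908, 574 and 534 reads, or 18.3, 12.8 and 10.2 CPM. Both lines were below the control, by -0.51 and -0.84 on the log2 scale, and the log2 fold change over both was -0.67 ± 0.30 (SE, edgeR adjusted p = 0.27). The genes with the most similar levels, by the same measure over 3914 genes, were ZBTB21, SMG1P1 and CDK2AP2, at distances of 0.021, 0.025 and 0.032. CBFA2T2 (ENSG00000078699, plus strand of chromosome 20, 32077881 to 32237842) had 558, 405 and 379 reads. On the log2 scale this was -0.47 ± 0.32 (SE, edgeR adjusted p = 0.47), with -0.31 and -0.63 in the single lines.

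RUNX1T1 (ENSG00000079102, minus strand of chromosome 8, 92967203 to 93115514) set the lines apart. It had 61 reads in the control, 1091 in the shRBM15#1 line and 146 in the shRBM15#2 line, or 1.23, 24.4 and 2.80 CPM. The log2 fold change was 4.31 in the first line and 1.18 in the second, a gap of 3.13 that was reached or exceeded by 45 genes, 0.181% of those tested. Over both lines the log2 fold change was 3.46 ± 1.11 (SE, edgeR adjusted p = 0.16). The adjusted p of RUNX1T1 depended on the settings and was 0.10 with size factors, 5.9e-09 without a filter on low counts and 0.38 in DESeq2. In the shRBM15#1 line the reads covered 95 of the 100 bins of the gene, compared with 45 in the control and 54 in the shRBM15#2 line. The last exon, bin 001, held 6, 162 and 18 reads, or 9.84%, 14.8% and 12.3% of all RUNX1T1 reads of those libraries. A read that crosses several bins may be counted in each of them, and the gene sums would then exceed the number of fragments. Over 9 tested genes within 1 Mb of RUNX1T1, the median log2 fold change was -0.43 in the shRBM15#1 line, with a range of -0.88 to 1.33, so none of these neighbours was as far above the control there as RUNX1T1.

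**Figure D2:**
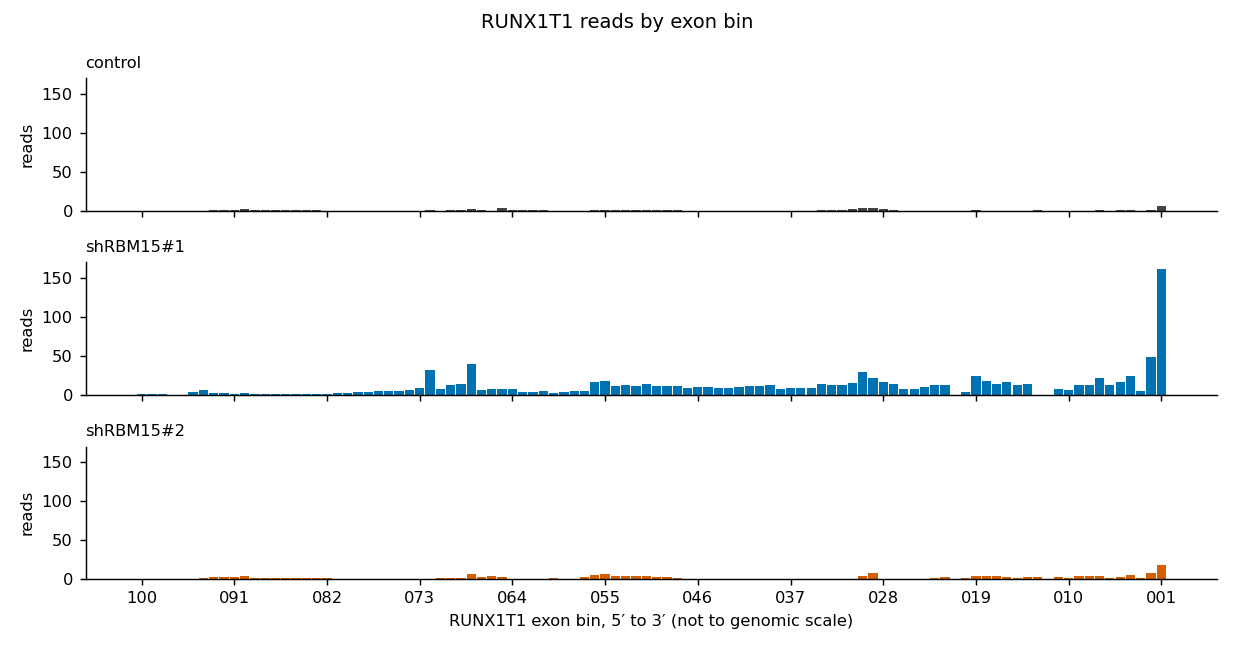
Reads of RUNX1T1 per exon bin in the 3 RNA-seq libraries, ordered from the 5′ to the 3′ end with equal spacing and 1 panel per library on the same linear axis. In the shRBM15#1 line 95 of the 100 bins had reads and the last exon held 162, against 6 in the control and 18 in the shRBM15#2 line.

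Exon usage was tested bin by bin relative to the rest of the gene with edgeR's diffSpliceDGE. Of the 282 bins of the 7 genes, 91 had enough reads, which was 26 of RUNX1, 20 of CBFB, 18 of CBFA2T3, 12 of CBFA2T2, 7 of RUNX1T1 and 4 each of RUNX2 and RUNX3. The study called bins without adjustment, at p under 0.05 with a relative fold above 1.2, and by these limits 5 of the 91 bins passed (5.49%), compared with 1.45% of all 234192 bins tested. No member bin passed an adjusted p under 0.05, which 0.0205% of all bins did, and the smallest adjusted p was 1.0. A DEXSeq-type model in DESeq2 placed 4 of the 5 past the same limits, and 2.12% of all bins. With at least 300 counts per bin, none of 26 member bins passed, where 0.88% of all such bins did, and all 5 bins have fewer reads than that. Bins within a gene may share reads and are not independent.

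In RUNX1 the bins past the limits were 006 and 033. Bin 006 (36202149 to 36202267), an exon of the noncoding transcript RUNX1-215, had 67 reads in the control against 16 and 18 after knockdown, and its relative log2 fold change was -0.93 ± 0.42 (SE). Bin 033 (36807959 to 36811369), in a transcript far upstream of the distal promoter, had 8, 27 and 7 reads and a relative log2 fold change of 2.17 ± 0.62 (SE). By reads only the shRBM15#1 line stood above the control, and relative to the rest of the gene the single lines were at 3.05 and 0.60. All bins upstream of the distal promoter, 030 to 044, summed to 21 control reads against 56 and 38 after knockdown, whereas bins 001 to 029 summed to 6313, 2524 and 3641. The upstream bins were thus higher in both lines and the rest of the gene lower, on a level of 0.424, 1.25 and 0.728 CPM. This sum was formed after the values had been seen.

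The neighbours of bin 006 around the early last exon of RUNX1 also had negative relative values, but did not pass the limits. Bin 005, the last exon of RUNX1a, held 90, 32 and 37 reads, with a relative log2 fold change of -0.34 ± 0.36 (SE). Bin 007, an intron piece kept in the noncoding transcript ENST00000469087, held 475, 148 and 195 reads, with -0.43 ± 0.26 (SE). Together bins 005 to 007 held 9.98% of the RUNX1 reads of the control, 7.60% of the shRBM15#1 line and 6.80% of the shRBM15#2 line. Bin 004, the exon of RUNX1b and RUNX1c with the second primer pair, held 107, 75 and 83 reads and lay on the other side, at 0.61 ± 0.32 (SE), without passing. The remaining tested bins between the distal promoter and the 3′ end showed no bin past the limits. Of the main bins, bin 001 was close to constant and held 28.6%, 27.2% and 27.6% of the RUNX1 reads. Bin 018, the first exon of the proximal promoter, was somewhat higher in both lines, at 21.6%, 23.5% and 25.2%.

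**Figure D3:**
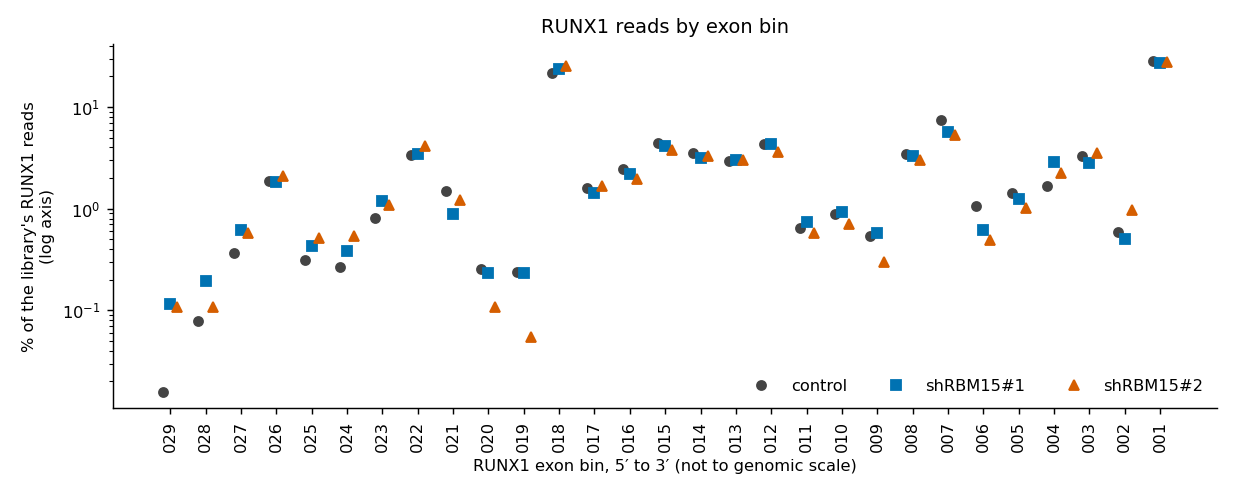
Share of each library's RUNX1 reads in exon bins 029 to 001, from the 5′ to the 3′ end with equal spacing, on a log axis, with circles for the control, squares for shRBM15#1 and triangles for shRBM15#2. Bins 001 and 018 held between 21.6% and 28.6% of the reads in each library, bin 006 lay lower in both lines and bin 004 higher.

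In CBFB the bin past the limits was 009 (67070330 to 67070541), a part of an intron kept in transcript ENST00000567947. It had 59, 25 and 39 reads and a relative log2 fold change of -0.86 ± 0.23 (SE), while the other 19 tested bins of CBFB lay between -0.27 and 0.44. The unadjusted p of bin 009 in diffSpliceDGE was 0.036, a weaker result than this SE alone would give. In CBFA2T2 bins 012 (32194762 to 32194905) and 014 (32198934 to 32199141), in neighbouring exons, were used more after knockdown. Bin 012 had 6 control reads and 20 and 15 after knockdown, at 2.18 ± 0.75 (SE) on the relative log2 scale. Bin 014 had 10, 19 and 20 reads, at 1.60 ± 0.67 (SE). Bin 013 between them had 3, 10 and 14 reads and was too shallow to be tested. The 3 bins together made up 3.41% of the CBFA2T2 reads of the control and 12.1% and 12.9% of those of the lines, and the other bins summed to 539, 356 and 330 reads. This sum was lower in both lines, although single bins such as 028, with 6, 9 and 14 reads, were not. No bin of RUNX2, RUNX3, CBFA2T3 or RUNX1T1 passed the limits.

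Promoter use was described by the share of reads in first exons of protein-coding transcripts, grouped by starts within 1 kb. In RUNX1 the proximal promoter (start at 36260987) held 1368 of 1634 first-exon reads in the control, 606 of 745 in the shRBM15#1 line and 926 of 1120 in the shRBM15#2 line. These shares were 83.7% (95% Wilson confidence interval 81.9% to 85.4%), 81.3% (78.4% to 84%) and 82.7% (80.4% to 84.8%). The distal promoter (starts from 36421567 to 36421641) held 235, 123 and 186 reads, or 14.4% (12.8% to 16.2%), 16.5% (14% to 19.3%) and 16.6% (14.5% to 18.9%). The lines were above the control in the distal share by 2.13 and 2.23 percentage points, and all 3 intervals overlap. A start at 36262087 held 31, 12 and 6 reads, and the most distant start, at 37357008, held 0, 4 and 2 reads, where 0 of 1634 reads allows a share of up to 0.184% by a floor of 3 counts and of 0.235% by the Wilson limit. Reads at both main promoters were lower in the lines than in the control, and since the first exons span 1507 bases at the proximal and 386 bases at the distal promoter, these shares do not rank the promoters by use.

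The early end of RUNX1 took a small share. Bin 005 held 90 of 1941 last-exon reads in the control, 32 of 746 in the shRBM15#1 line and 37 of 1090 in the shRBM15#2 line, which was 4.64% (3.79% to 5.67%), 4.29% (3.05% to 5.99%) and 3.39% (2.47% to 4.64%). The intervals overlap, and reads of RUNX1a and of the noncoding transcript that shares the bin cannot be told apart. The shares are of reads and not of molecules, since the exons differ in length, and the differences in shares were not tested. The intervals cover counting error only, and any reads counted in more than 1 bin make them too narrow. By PCR, the study reported that RBM15 knockdown moved the balance of RUNX1a against RUNX1b and RUNX1c toward RUNX1a. From the RNA-seq it also reported exon usage changes in RUNX1, with skipping of an exon by the MISO program. It marked the DEXSeq bin numbered 017 for the change toward RUNX1a. In the bins used here, number 017 starts at 36259394, beside the first exon of the proximal promoter, and was not among the bins past the limits. Exon skipping was not counted here as an event. The share at the RUNX1a end here lay in the other direction in both lines, but a share of reads is not the PCR ratio. The reason for the difference was not tested.

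Most first-exon reads of CBFA2T3 lay at its most 5′ start. Bins 034 to 036 at 89043065 to 89043612 held 166 of 185 first-exon reads in the control, 129 of 139 in the shRBM15#1 line and 155 of 158 in the shRBM15#2 line. The shares were 89.7% (84.5% to 93.3%), 92.8% (87.3% to 96.0%) and 98.1% (94.6% to 99.4%). The intervals of the control and the shRBM15#2 line do not overlap, and those of the control and the shRBM15#1 line do. This separation depended on the grouping. With first exons of all transcripts the shares were 63.6% (57.6% to 69.2%), 66.5% (59.6% to 72.8%) and 69.2% (62.9% to 74.9%), and the intervals all overlap. A start at 89007606 to 89008252 had 7 reads in the control and 0 in both lines, where 0 of 139 and 0 of 158 reads allow shares of up to 2.16% and 1.90% by the floor of 3 counts, and of 2.69% and 2.37% by the Wilson limit. Bins 034 to 036 were nearly level between libraries, at 3.35, 2.88 and 2.97 CPM, whereas the last exon in bins 001 to 004 was at 6.89, 4.04 and 2.97 CPM. By single bins, the relative log2 fold changes were 0.42 to 0.68 in bins 034 to 036 and -0.53 to -0.21 in bins 002 to 004, and none passed the limits. Of the 36 bins, 6 overlap the gene ENSG00000259881, and 5 of these had no read.

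RUNX2 also has a distal and a proximal promoter, and the distal one held 29 of 32, 38 of 44 and 17 of 19 first-exon reads. CBFB has 1 start and 1 end by this grouping. The remaining genes were too shallow for a statement on starts: RUNX3 had 2, 7 and 0 first-exon reads, CBFA2T2 16, 29 and 28, and RUNX1T1 17, 90 and 26. In RUNX1T1 the starts at 93107443 to 93107882 held 12, 51 and 17 of these reads, the most in each library.

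**Figure D4:**
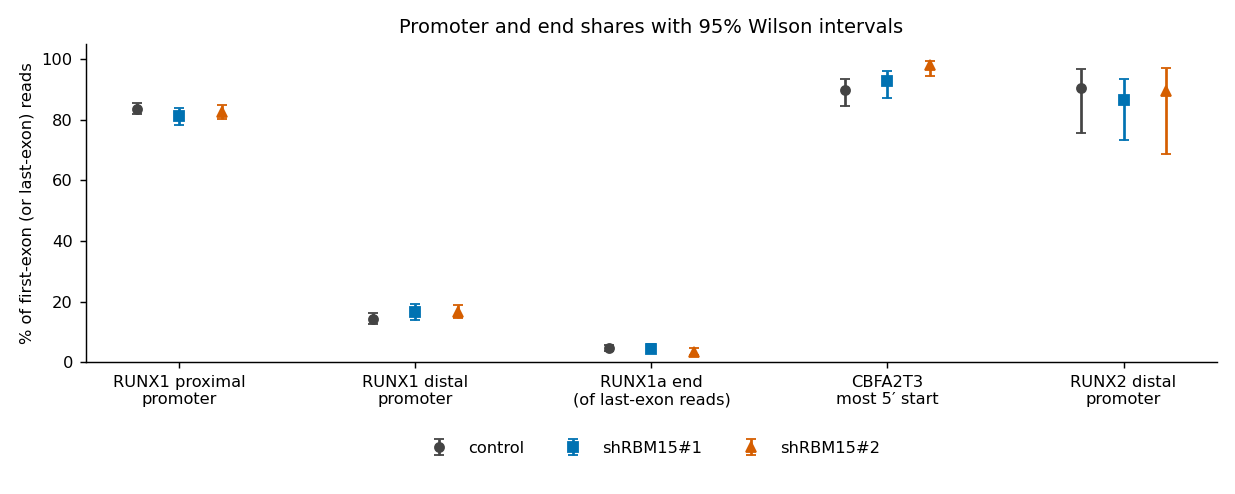
Shares of first-exon reads at 4 promoters, and of last-exon reads at the RUNX1a end, in percent, with 95% Wilson intervals for each of the 3 libraries. The intervals of the control overlap those of both lines for RUNX1 and RUNX2, and for CBFA2T3 they overlap those of shRBM15#1 only. The shares shown use protein-coding transcripts, and with first exons of all transcripts the CBFA2T3 intervals overlap between all libraries.

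Genes that work with the RUNX and ETO proteins were followed as 4 lists. None of 29 genes for RUNX1 protein partners passed an adjusted p under 0.01 in edgeR, 5 had an unadjusted p under 0.05 (18.8% of all genes did), and DESeq2 called 1 at 0.01, where it called 525 of all 24887 genes. The median log2 fold change was -0.14. The 4 with the smallest p were FOS at 2.01, MYB at -0.97, TAL1 at 0.66 and FLI1 at 0.68 on the log2 scale (adjusted p = 0.082, 0.12, 0.19 and 0.20). MYB, a factor of blood progenitors, had 388 CPM in the control against 159 and 237, and TAL1, a factor of erythroid and megakaryocytic cells, had 236, 347 and 399 CPM.

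Of 25 genes for proteins found in complexes with ETO proteins, none passed 0.01 and 2 were lower at an adjusted p under 0.05, GFI1 and IRF2BP2. Of all genes, 1.74% passed that limit in either direction, and 1.2% were lower. At an unadjusted p under 0.05 there were 7, compared with 18.8% of all genes, and DESeq2 called 2 at 0.01, of its 525 among the 24887 genes. GFI1, a repressor of myeloid and stem cell genes, had 3537, 945 and 1638 reads and a log2 fold change of -1.44 ± 0.28 (SE, edgeR adjusted p = 0.043). IRF2BP2, a cofactor that binds ETO2, had 3098, 880 and 1409 reads and a log2 fold change of -1.42 ± 0.27 (SE, edgeR adjusted p = 0.038). GFI1B, the paralog of GFI1 needed for erythroid and megakaryocytic cells, lay on the other side at 837, 1298 and 2869 reads (log2 fold change 1.31, adjusted p = 0.14). The median of this list was -0.28.

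Of 23 RUNX1 target genes of megakaryocytes and platelets, 21 were tested and 1 passed. Of all genes, 0.346% passed 0.01 in either direction, and 0.0683% passed as higher. CD36, a receptor for fatty acids and thrombospondin, rose by 3.66 ± 0.39 on the log2 scale (SE, edgeR adjusted p = 0.0050), with 186 control reads against 2616 and 1902 after knockdown. The median of the list was 0.020, with 10 genes lower and 11 higher, and the platelet gene PF4 was too low to be tested. Of 18 RUNX1 targets of myeloid and lymphoid cells, 16 were tested and 1 passed, again beside 0.346% of all genes in either direction, and 0.277% that were lower. CTSG, a protease of neutrophil granules, fell from 4741 reads to 167 and 446, a log2 fold change of -3.96 ± 0.41 (SE, edgeR adjusted p = 0.0043). At the wider limit of 0.05, 2 genes of the list were lower and 0 higher. Of all genes, 1.2% were lower at that limit and 1.74% passed it in either direction. Besides CTSG this was CD4, named here after its values had been seen, with 2189, 476 and 927 reads (log2 fold change -1.64, edgeR adjusted p = 0.045). The median of this list was 0.76, with 4 genes lower and 12 higher. Several of the higher genes were shallow, such as BLK, CEBPA and CSF2 with 3, 5 and 6 control reads. The summed level of the list, mostly CCND2, did not rise and was 529, 499 and 300 CPM. The part of shallow genes in the median was not tested. RUNX3 is a member of this list as well as of the RUNX family, and 6 of the RUNX1 partners are on another of the lists too.

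In the RIP-seq, the antibody labels of 2 libraries conflict with their side in the authors' comparison, so the only libraries given by condition are normal IgG replicate 1 and replicate 1 with anti-RBM15. The second library labelled normal IgG and the second labelled RBM15 antibody are given as values. The deposited list holds reads at 1515 sites that the authors called on pooled coverage as higher with RBM15, so a higher level in the anti-RBM15 library is what the sites were chosen for, and sites that did not pass were not analysed here. The depth of the libraries is unknown. Of the 1515 sites, 3 were annotated to RUNX1 and 2 to CBFA2T3, and RUNX2, RUNX3, CBFB, CBFA2T2 and RUNX1T1 had none. All 1515 sites together named 1014 gene symbols, where the deposited counts cover 62238 genes. Assignment by overlap with the gene span gave the same 5 sites.

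The 3 sites of RUNX1 were of middle rank. The site in the 3′UTR (chromosome 21, 36161449 to 36161743, within bin 001) had 11 reads with normal IgG replicate 1 and 298 with anti-RBM15 replicate 1, and 358 and 9 in the unassigned libraries labelled normal IgG and RBM15 antibody. The site in the 5′UTR (36260636 to 36260860, within bin 018, the first exon of the proximal promoter) had 16 and 315 reads, and 311 and 24. The intronic site (36347907 to 36348295) lies between both promoters, 72844 bases downstream of bin 022, and had 22 and 333 reads, and 303 and 18. By reads in the anti-RBM15 library these sites ranked 681, 650 and 622 of 1515, where the median site had 262.

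CBFA2T3 held one of the deepest sites of the list. The intronic site at chromosome 16, 88982361 to 88982898, between bins 028 and 029, had 59 reads with normal IgG replicate 1 and 4267 with anti-RBM15 replicate 1, and 2993 and 44 in the unassigned libraries in the same order. It ranked 19 of all sites in the anti-RBM15 library. The second site (88948694 to 88948964) lies in the intron 120 bases downstream of the exon in bin 015 and had 18 and 746 reads, and 448 and 6, at rank 241. The ratio of anti-RBM15 to normal IgG reads was 72.3 and 41.4 at the CBFA2T3 sites and 27.1, 19.7 and 15.1 at the RUNX1 sites, where the median over all sites was 31.3. These ratios are of 1 library each, are not scaled by depth and have no replicate check. Bins 001 and 018 of RUNX1, which hold its UTR sites, did not pass the limits of exon usage, and bins 014, 015, 028 and 029 of CBFA2T3, which flank its sites, had too few reads to be tested.

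**Figure D5:**
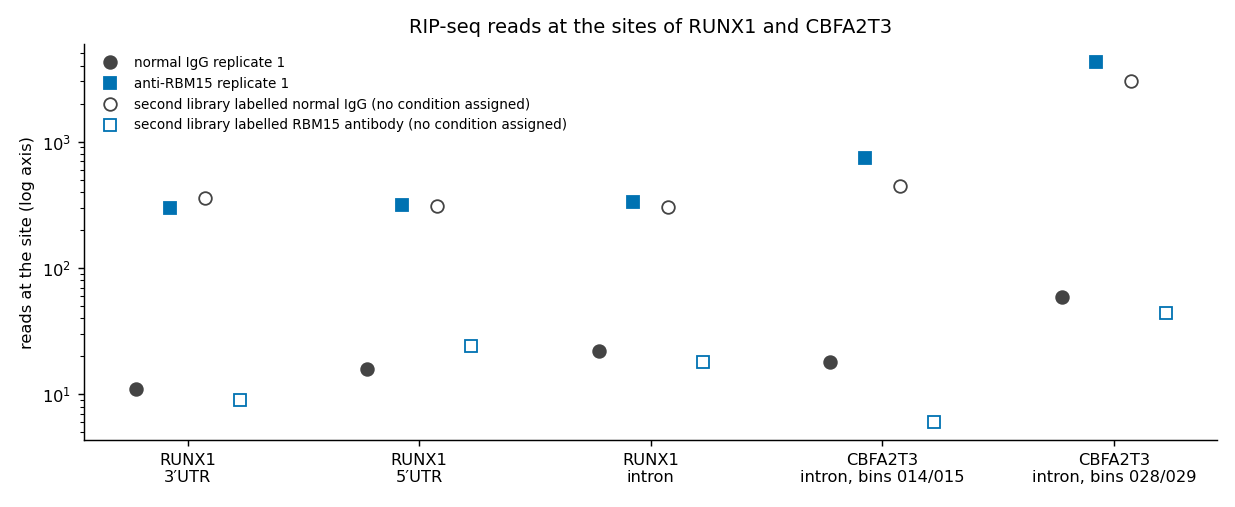
Reads at the 5 RIP-seq sites of RUNX1 and CBFA2T3 in the 4 libraries, on a log axis, with filled symbols for the libraries given by condition and open symbols for those with conflicting labels. At each site the second library labelled normal IgG lies near anti-RBM15 replicate 1 and the second labelled RBM15 antibody near normal IgG replicate 1, and the last site reaches 4267 reads.

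The letters of the sites differ between the genes, as the stretches above show. Thymine made up 36.3%, 40.9% and 32.4% of the bases in the 3′UTR, 5′UTR and intron sites of RUNX1, and 5.54% and 14.9% in the CBFA2T3 sites near bin 015 and between bins 028 and 029. The median was 25.2% over the 752 intronic sites and 33.1% over the 427 sites in 3′UTRs with a strand. Of the intronic sites, 8 had less thymine than the CBFA2T3 site near bin 015. Overlapping matches to TTTTT on the gene's strand numbered 4, 9 and 2 in the RUNX1 sites and 0 in both CBFA2T3 sites, and at least 1 was held by 74.2% of the 3′UTR sites, 21.5% of the intronic sites and 39.9% of all sites with a strand. Matches to CACACA numbered 0, 0 and 2 in the RUNX1 sites and 19 and 24 in the CBFA2T3 sites, and 50.9% of the intronic and 12.2% of the 3′UTR sites held at least 1. Both motifs thus differed in share between the classes of sites, and both CBFA2T3 sites are intronic, while 2 of the 3 RUNX1 sites are in UTRs. On the opposite strand's letters, AAAAA and TGTGTG, none of the 5 sites had a match. Among the 1287 sites with a strand, 114 had 19 or more CACACA matches, and all of these are intronic. The matches describe the letters of the sites and do not show what RBM15 recognises.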

How the data were processed

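RNA-seq of 3 MEG-01 libraries and RIP-seq of 4 were used. The members, the lists and the tests were chosen with earlier results of these data known. The authors aligned the RNA-seq reads, which carry no strand information, to GRCh37 with STAR and deposited raw counts per exon bin of Ensembl gene models (GRCh37.70). The counting program and its settings for the bins are not given in the sources used here, although the submitters' processing notes list HTSeq 0.6.0. The deposited RIP-seq table holds raw counts of 4 libraries at 1515 sites called on hg19 by the authors, who trimmed the reads with Trimmomatic, aligned them with STAR and tested sites with DESeq. Columns with the authors' fold changes, p-values and adjusted values, in this table and in an exon table with the same counts as the count files (625148 of 625148 bins equal, 809 wrapped lines left out), were not used.

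Bin counts were summed per gene, and 24887 genes with at least 30 counts were tested with edgeR 4.0.16 in R 4.3.3 (TMM, quasi-likelihood test, 1 residual degree of freedom, Benjamini-Hochberg adjusted p under 0.01). The standard error of a fold change is derived from the fold change and the test statistic. CPM and RPKM use TMM library sizes, and RPKM the length of all bins of a gene. A read crossing several bins may be counted in each, which was not checked and which the sums do not correct. Lines naming no gene (23.2%, 32% and 23.5% of all counts in the files) were left out. Exon usage was tested with diffSpliceDGE on bins with at least 30 counts, since DEXSeq was not used here. Symbols came from GENCODE annotation lifted to GRCh37 for 54481 of 62238 genes. The functions that test genes and bins were also run on simulated counts with known changes. Named were the 7 members, RBM15, and of each list the genes past the limit or else up to 4 with the smallest p. A gene that this rule names is not reported here. Alternatives were size factors, no filter, DESeq2 1.42.0, other minimum counts, other groupings of starts, and leaving out each knockdown line. Shares, sites and figures used Python 3.11.15 with pandas 2.3.3.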

Additional observations from a re-analysis of the deposited data

Results flagged for a closer look

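The second RIP-seq library labelled normal IgG, which enters no comparison, had 358 reads at the 3′UTR site, 311 at the 5′UTR site and 303 at the intronic site of RUNX1, and 448 and 2993 at the CBFA2T3 sites near bin 015 and between bins 028 and 029. These 5 values were picked out because each is above normal IgG replicate 1, which had 11, 16, 22, 18 and 59 reads. Over all 1515 sites this library was above the second library labelled RBM15 antibody at each of the 1515. Against their labels, the authors grouped this library with their RBM15 samples and the other with their controls. They kept only sites where the RBM15 samples had more reads. The choice of sites thus favoured these higher levels, which therefore cannot show whether the labels are right. Whether the labels of the 2 libraries were exchanged was not tested.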

How the results depend on the processing

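No paired analysis was possible because there is 1 control library. Counts of members past an adjusted p of 0.01 were 0 with size factors and in DESeq2 and 1, RUNX1T1, without a filter on low counts, where TMM moved the median log2 fold change of the same 24887 genes from 0.017 to -0.11, so the fold changes of that setting are to be read against -0.11. CBFB turned to 0.0032 with size factors and in DESeq2. Of the member bins, 12 of 267 passed the limits with at least 1 count per bin, where 1.77% of all bins did (8 of the 12 in RUNX1, and 4 also among the 5 reported), 0 of 26 with at least 300 counts and 0 at an adjusted p under 0.05. The share of first-exon reads at the proximal promoter of RUNX1 differed from the control by a mean of -1.71 percentage points. With 1 line left out the difference was -2.38 or -1.04. With first exons of all transcripts the mean was -0.24, and the direction differed between the lines, at -1.21 in shRBM15#1 and 0.73 in shRBM15#2. Over the 4 lists 2 genes passed, compared with 6 without the filter and 7 in DESeq2, while the calls over all genes moved from 86 of 24887 to 801 of 53542 and 525 of 24887. The cause of these movements was not tested, except that fewer bins reach 300 counts. The fold change of RUNX1T1 was 1.18 without the shRBM15#1 line and 4.31 without the shRBM15#2 line, and that of RUNX1 bin 033 was 0.60 and 3.05. The site count stayed at 5 under both alternatives. Depth left 4 bins each of RUNX2 and RUNX3, 7 of RUNX1T1 and 12 of CBFA2T2 with enough reads to be tested.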
